A study of Rattus norvegicus with 28 samples.

Results

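Spinal cords of rats that received neural progenitor cells (NPCs) directly after a contusion (T1_NPC) were compared with cords of injured rats that received no cells (T1), both taken 1 week after spinal cord injury (SCI). The samples were chosen by their labels, and 8 of the 28 arrays of the study entered the comparison, 4 per group. All animals were adult female rats of the Sprague Dawley strain, and severe SCI was made at the T8 vertebral level with a force of 250 kdyn. In T1_NPC, 1000000 NPCs were placed at a pair of points 2 mm rostral and caudal to the epicentre, in 5 µl each, and these cells had been grown as neurospheres from cords of adult rats that had themselves been injured. The study's methods state that injured controls were given the same volume of medium without cells. They also list the immunosuppressant tacrolimus (FK-506, 1 mg per kg) for all animals, dated from the day before transplantation, so that its use in T1, which had no transplantation, is not settled by the labels. RNA came from the whole 1.5 cm piece of cord around the epicentre, so host and donor cells were measured together. In such tissue, fewer cells of a type and less RNA per cell cannot be told apart.

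NPCs are cells of the neural lineage that divide in culture and can form neurons, astrocytes and oligodendrocytes. After a contusion, the cord loses neurons and oligodendrocytes at the epicentre, microglia and blood-derived macrophages take up the debris, and astrocytes and fibroblasts form a scar. Cells of all these types answer signals from their surroundings within minutes through immediate early genes, whose products are mostly transcription factors and brakes on kinases, and over longer times through cell contact signals such as the Notch pathway.

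Before the values, 3 facts on the arrays have to be given. First, the deposited value table and the deposited scanner files conflict. For 7 of the 8 samples, the column of the value table had the rank order of a scanner file deposited under another sample. Only T1 replicate 1 had the same sample in both. The values here follow the value table, in which the phagocyte marker Cd68 lay between 8.83 and 9.51 (log2) in the 4 uninjured cords (T0, labelled sham) and between 15.49 and 16.49 in the 24 cords of injured rats. With the scanner files under their deposited samples, Cd68 ranged from 9.47 to 15.99 in T0 and from 8.83 to 16.49 in the injured rats, so that the groups overlapped, and no feature was called between T1_NPC and T1 (871 had an unadjusted p under 0.05 in limma). In the value table Cd68 overlapped between T1 (16.01 to 16.47) and T1_NPC (15.88 to 16.49). It therefore cannot check which of these groups an injured sample belongs to. Every direction given below rests on the value table. Second, by the value table the 4 T1_NPC arrays filled 1 slide of scan session 3, while the T1 arrays were read in session 1 (replicate 1) and session 2 (replicates 2 to 4). Transplantation and slide or session cannot be told apart. Within the time course, where session and group can be separated, session 2 differed from session 1 for 13625 of 35469 features (38.4%), a comparison chosen after the data were seen. Of the features called in T1_NPC, 32.5% were among them. Finally, T1_NPC replicate 2 stood apart from the other 3.

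**Figure D1:**
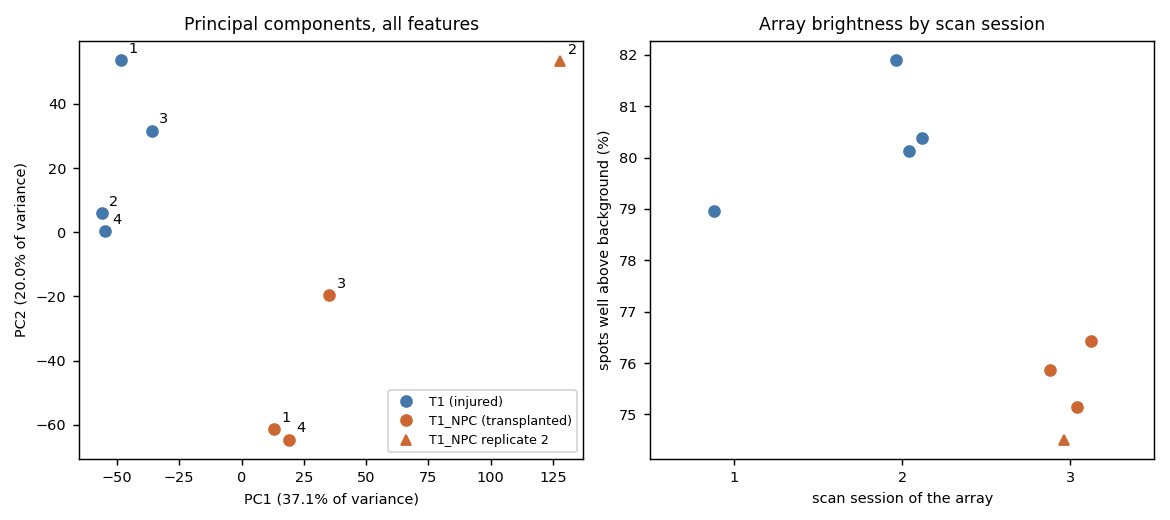
Left, the first and second principal component (PC1, PC2) of the 8 samples over all features, 1 point per sample with its replicate number. Right, the percentage of spots well above background on each array against the scan session in which it was read. T1_NPC replicate 2 (triangle) lies at 128.0 on PC1, and all T1_NPC arrays lie in session 3 with fewer spots above background than any T1 array.

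The samples separated by group along PC1, which held 37.1% of the variance. The T1 samples lay between -56.1 and -36.1 and all T1_NPC samples above 0, with replicate 2 at 128.0 and the other 3 at 35.2 or below. Between 74.5% and 76.4% of the spots were well above background on T1_NPC arrays, against 79.0% to 81.9% on T1 arrays, and precision is limited by how few arrays there were.

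Of the 35469 features, 4225 (11.9%) differed between T1_NPC and T1 at a Benjamini-Hochberg adjusted p under 0.05 in limma. A feature here is the mean of all probes with one gene name, and values are log2 of quantile normalized intensities. Higher in T1_NPC were 1933 features (5.45%) and lower were 2292 (6.46%), of which 735 and 833 differed by at least 2-fold. The 4 values of one group did not overlap those of the other in 5789 features (16.3%), and 3276 of the called ones were among these. With the arrays scaled to their 75th percentile in place of quantile normalization, 5230 features were higher and 2069 lower (71.7% higher, against 45.8%), and the median difference of all features was then 0.11 in place of -0.01. Without T1_NPC replicate 2, 3018 features were called, and with only these 8 samples in the fit, 1223.

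Named here are the 15 rises and 15 falls of largest size among genes with a reference symbol that were called, did not overlap and were well above background on all 8 arrays (756 genes qualified). At the top was Psx1, a homeobox gene known from placenta. Its log2 values were 6.82, 6.64, 6.66 and 6.79 in T1 and 8.16, 8.51, 8.32 and 8.27 in T1_NPC. All 4 transplanted cords stood more than 1 log2 unit above all injured ones, a difference of 1.59 ± 0.13 (SE, 3.00-fold, adjusted p = 5.25e-08). Adam7, a metalloproteinase-like gene of the epididymis, read 5.35, 5.48, 5.14 and 5.05 in T1 and 6.40, 7.46, 6.74 and 6.65 in T1_NPC (difference 1.56 ± 0.21). Otop3, a proton channel, rose by 1.55 ± 0.23, from 6.12 to 6.60 in T1 to 7.53 to 8.14 in T1_NPC. All 3 are known mainly from other tissues, as are the vomeronasal receptor gene Vom2r60 (1.43 ± 0.28), the trypsin gene Try10 (1.28 ± 0.25) and the mesendoderm homeobox gene Mixl1 (1.22 ± 0.23). The size and order of the rises depended on the background correction. With normexp correction of the scanner intensities, 10 of the 15 rises were smaller by over 1.5 times, against 1 of the 15 falls (Fam184b, -1.07). Psx1 then read 1.06, Adam7 0.63, Otop3 0.91, Vom2r60 0.49 and Try10 0.65, while Rtn4rl2 (1.50) and Junb (1.48), both described below, were larger than Psx1. The normexp setting added an offset of 50 to each intensity, which shrinks log2 differences more for dim features than for bright ones. Fam184b had the lowest T1_NPC mean of the 15 falls (5.55). The part of the offset was not tested, here or in the normexp values given below.

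Among the other rises were genes at work in nerve tissue. Rtn4rl2 encodes a relative of the Nogo receptor, which binds inhibitors of axon growth. It read 12.80, 12.91, 12.43 and 13.06 in T1 and 14.40, 14.26, 14.17 and 13.78 in T1_NPC, a difference of 1.35 ± 0.26 (2.56-fold, adjusted p = 0.00155), with T0 at 11.87. Sspo encodes SCO-spondin, a glycoprotein secreted into cerebrospinal fluid. It read 7.42, 6.38, 6.12 and 6.38 in T1 and 8.20, 7.81, 7.97 and 7.58 in T1_NPC (difference 1.32 ± 0.42, adjusted p = 0.0438). Its T1 value of session 1 was the highest of the group, sessions differed by -1.24 for this gene, and the call was lost when any of 6 of the 8 arrays was left out (adjusted p up to 0.122). Wnt9a, a Wnt ligand, rose by 1.20 ± 0.26 and Steap4, a metalloreductase, by 1.20 ± 0.26 (0.33 and 0.58 with normexp). Moxd1, a relative of dopamine beta-hydroxylase, rose by 1.50 ± 0.38, and its adjusted p was 0.0530 without T1_NPC replicate 2 (0.62 with normexp). The list was completed by Junb and Dusp1, given with the immediate early genes, by Rassf6 (1.23 ± 0.27, 0.40 with normexp) and by Tex10 (1.25 ± 0.24, 0.51 with normexp), whose 2 probes gave 0.75 and 1.75.

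The largest fall was that of Notch3, a Notch receptor of pericytes and vascular smooth muscle. Its values were 15.66, 15.57, 15.47 and 15.39 in T1 and 13.89, 9.90, 13.53 and 13.48 in T1_NPC. The T1 samples lay within 0.3 of each other, and every transplanted cord was lower, replicate 2 by far the most. The difference was -2.82 ± 0.50 (7.06-fold, adjusted p = 0.000825), and without replicate 2 it was -1.89 (adjusted p = 4.4e-07). With only the 8 samples in the limma fit, Notch3 was not called (adjusted p = 0.111). T0 stood at 14.88. T1 was higher by 0.64, which was not called (adjusted p = 0.326 in limma), and all T1_NPC values lay below the T0 mean. Grin2d, a subunit of NMDA-type glutamate receptors, read 12.99, 14.63, 14.01 and 14.66 in T1 and 10.78, 11.21, 11.79 and 12.27 in T1_NPC (difference -2.56 ± 0.63, adjusted p = 0.00994). Its lowest T1 value was that of session 1, and session 2 was higher than session 1 by 1.68. Fam184b (-2.11 ± 0.51) and Jph1, which encodes a protein of junctions between muscle membranes and fell by 2.00 ± 0.53, had the same T1 pattern, with session differences of 1.53 and 1.44. The part of the session in these values was not tested for T1_NPC. Jph1 was not called without T1 replicate 2 or 4 (adjusted p up to 0.0537).

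Several falls were of genes of immune cells. Tnfsf4 encodes OX40 ligand, which stimulates T cells. It read 10.17, 10.63, 10.14 and 10.32 in T1 and 9.67, 4.99, 9.19 and 9.21 in T1_NPC. Replicate 2 was far below the other 3, and the difference of -2.05 ± 0.58 became -0.96 without it (adjusted p = 0.00266). The call was lost without T1 replicate 2 (-1.95, adjusted p = 0.0586). Cd84, a receptor of the SLAM family on leukocytes, fell by 1.65 ± 0.39, from 9.25 to 10.41 in T1 to 6.31 to 9.21 in T1_NPC, and it fell by 1.00 without replicate 2. Arhgap25, a regulator of Rac in leukocytes, differed by -1.31 ± 0.31 (-0.87 without replicate 2), and its 2 probes gave -0.77 and -1.86.

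Muscle-associated genes and others made up the rest. Sgca, the alpha subunit of the sarcoglycan complex, fell by 2.00 ± 0.43, Tnnt1, a troponin of slow muscle, by 1.49 ± 0.21, and Tcf15, a transcription factor of somites, by 1.85 ± 0.37. Tnnt1 had one of the smallest adjusted p among the falls (8.14e-05), with 8.85 to 9.24 in T1 and 7.07 to 8.28 in T1_NPC. Of the 12 skeletal muscle markers on a separate list, only Acta1 was called (8.33%, beside 11.9% of all features). Acta1 read -0.66 ± 0.21 (adjusted p = 0.0423). Its values in both groups overlapped, and the call was lost without any of 6 of the 8 arrays (adjusted p up to 0.120). Slc31a1, the copper importer of the cell membrane, read 10.09, 10.59, 10.54 and 10.51 in T1 and 9.49, 8.73, 9.07 and 9.21 in T1_NPC. Its difference was -1.31 ± 0.17 (adjusted p = 2.25e-05), and its T1_NPC values lay around the T0 mean of 9.24. Pi16, a marker of fibroblasts, stood at 5.14 in T0, at 8.98 to 9.98 in T1 and at 6.83 to 8.67 in T1_NPC (difference -1.49 ± 0.30). Dhx9, an RNA helicase, fell by 1.47 ± 0.22, with -2.29 and -0.65 from its 2 probes. Edn3, the ligand endothelin 3 (-1.53 ± 0.49), and Rnase10 (-1.48 ± 0.47) were each lost without any of 6 of the 8 arrays, with adjusted p up to 0.103 and 0.175. Without T1_NPC replicate 2, Edn3 differed by -0.66 and Rnase10 by -1.02. Of all 30 genes, 23 kept their call whichever array was left out, 25 were called with the slide as a random block, 19 were called with only the 8 samples in the fit, and 26 rest on a single probe. In the time course, 12 of the 30 were also called for session 2 minus session 1, beside 38.4% of all features. Besides Sspo, Junb, Grin2d, Fam184b and Jph1 these were Notch3 (-0.25), Otop3 (-0.50), Moxd1 (0.76), Tex10 (0.42), Mixl1 (-0.46), Arhgap25 (0.60) and Slc31a1 (0.31).

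**Figure D2:**
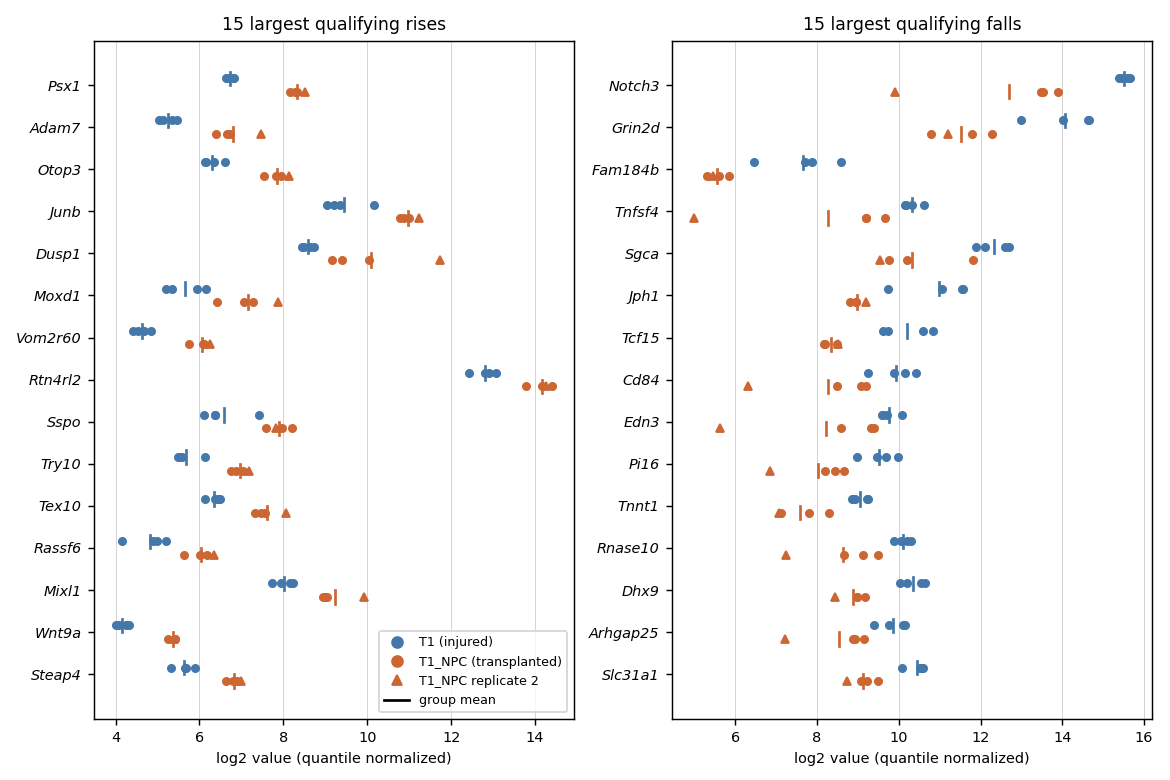
Quantile normalized log2 values (horizontal axis) of the 15 largest qualifying rises (left) and falls (right), 1 point per sample, T1 in blue and T1_NPC in orange, with bars for the group means and a triangle for T1_NPC replicate 2. Replicate 2 lies far below the other 3 transplanted cords for Notch3 (9.90), Tnfsf4 (4.99), Cd84 (6.31) and Edn3 (5.61). For most rises it lies above the other 3, clearly so for Dusp1 (11.74), Adam7 (7.46), Mixl1 (9.93) and Tex10 (8.06). It does not for Rtn4rl2, Sspo and Wnt9a.

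Of the 16 immediate early genes, 6 were called higher and none was called lower. The share of 37.5% stands beside 5.45% of all features that were called higher, and the median difference of the list was 0.24 beside -0.01 over all features. Members of the AP-1 transcription factor were among them. Fos read 11.02, 11.01, 11.24 and 10.93 in T1 and 11.97, 12.67, 11.75 and 12.08 in T1_NPC. The groups did not overlap, and the difference was 1.07 ± 0.19 (2.10-fold, adjusted p = 0.000723), with T0 at 9.81. Its partner Junb read 10.16, 9.36, 9.03 and 9.22 in T1 and 11.00, 11.23, 10.87 and 10.79 in T1_NPC (1.53 ± 0.26, 2.89-fold, adjusted p = 0.000474), with T0 at 7.18. The T1 array of session 1 was the highest of its group, and sessions differed by -0.67 for Junb. For both genes T1 was above T0 and T1_NPC above T1. Btg2, a brake on cell division, rose by 0.98 ± 0.21 (adjusted p = 0.00345), and Fos, Junb and Btg2 kept their calls whichever array was left out.

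The other 3 rises were less stable. Dusp1 encodes a phosphatase that switches off MAP kinases. It read 8.45, 8.50, 8.74 and 8.63 in T1 and 9.16, 11.74, 9.41 and 10.04 in T1_NPC, with replicate 2 far above the other 3 and a difference of 1.51 ± 0.43 (adjusted p = 0.0252). Without that replicate the difference was 0.96 (adjusted p = 0.111), and the call was also lost without T1 replicate 1 or 2. Nr4a1, an orphan nuclear receptor, rose by 0.68 ± 0.18 (0.50 without replicate 2, adjusted p = 0.0637). Egr3 rose by 0.82 ± 0.26, was well above background on only 2 of the 4 T1 arrays, and was lost without any of 6 of the 8 arrays (adjusted p up to 0.121). Without T1_NPC replicate 2, 4 of the 16 were called higher. Not all members took part. Egr1, a zinc finger factor of the same class, read -0.13 ± 0.19 (adjusted p = 0.735), Jun -0.13 ± 0.13, Arc 0.01 ± 0.28 and Egr2 -0.83 ± 0.29 (adjusted p = 0.0618). With 75th percentile scaling, 6 were higher and 1 lower.

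**Figure D3:**
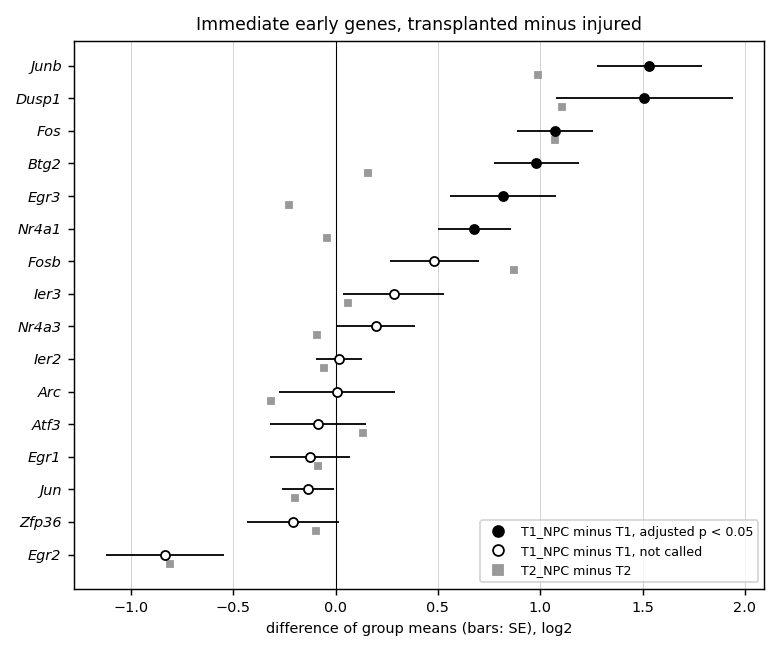
Difference of group means (log2, horizontal axis) for the 16 immediate early genes, sorted by size, with SE bars for T1_NPC minus T1 (filled circles, adjusted p under 0.05, open circles, not called) and grey squares for T2_NPC minus T2. Junb, Dusp1, Fos, Btg2, Egr3 and Nr4a1 are called, all above 0.

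Since several of these genes were called higher, the bases before their start sites are shown. Promoters of 9 of the 16 genes were found in the RefSeq table (build GRCr8), of which 4 belonged to called genes. Those of the called genes Fos and Egr3 were missing. The cAMP response element, TGACGTCA, and its core TGACG (either strand, the core lies within the full element) were searched in the 250 bases before the start. The CArG box, the binding motif of serum response factor, was searched as well, as CCWWWWWWGG (W is A or T) with no mismatch allowed. Capitals mark the matches in these 5′ to 3′ sequences.
Dusp1 (chr10:17184603-17184852, plus strand): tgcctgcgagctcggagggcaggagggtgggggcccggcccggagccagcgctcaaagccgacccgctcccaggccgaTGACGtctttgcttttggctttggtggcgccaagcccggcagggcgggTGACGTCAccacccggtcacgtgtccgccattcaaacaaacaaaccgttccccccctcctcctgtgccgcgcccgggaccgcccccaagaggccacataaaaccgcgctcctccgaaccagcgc
Btg2 (chr13:48087691-48087940, minus strand): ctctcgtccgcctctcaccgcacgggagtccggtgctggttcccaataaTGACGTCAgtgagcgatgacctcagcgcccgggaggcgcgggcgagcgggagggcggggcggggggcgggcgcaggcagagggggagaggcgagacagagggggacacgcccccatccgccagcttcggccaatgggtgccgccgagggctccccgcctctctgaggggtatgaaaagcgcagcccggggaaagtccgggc
Junb (chr19:40080876-40081125, plus strand): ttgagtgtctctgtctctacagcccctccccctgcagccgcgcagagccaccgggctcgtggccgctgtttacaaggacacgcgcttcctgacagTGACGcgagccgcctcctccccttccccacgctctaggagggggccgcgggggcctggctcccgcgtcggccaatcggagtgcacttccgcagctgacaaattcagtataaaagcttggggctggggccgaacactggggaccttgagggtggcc
Nr4a1 (chr7:134259888-134260137, plus strand): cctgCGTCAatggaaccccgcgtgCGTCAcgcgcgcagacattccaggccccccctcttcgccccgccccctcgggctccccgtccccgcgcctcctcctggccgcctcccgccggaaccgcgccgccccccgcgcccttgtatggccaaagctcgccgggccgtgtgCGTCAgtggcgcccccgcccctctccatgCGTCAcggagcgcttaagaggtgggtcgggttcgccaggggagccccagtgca
Dusp1, Btg2 and the uncalled Ier2 held the full element, which 1.59% of the 33469 promoters in the table hold. The core was present in all 4, against 18.2% of all promoters and 3 of the 5 uncalled members (Egr1, Egr2 and Ier2). A CArG box was present in none of these 4 and in 3 of the 5 uncalled members (Egr1, Egr2 and Zfp36), against 1.50% of all promoters. A match is a description of the letters only. Looser matches and bases farther upstream were not searched, and called and uncalled members were not compared by a test.

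Notch signalling is a contact pathway in which a ligand on one cell activates a receptor on the next, and RBPJ carries the signal to the genome. Of its 18 listed genes, 2 rose and 3 fell (11.9% of all features were called), with a median difference of -0.01. Among the receptors, only Notch3 was called. Notch1 read -0.11 ± 0.22, Notch2 0.37 ± 0.17 and Notch4 0.08 ± 0.14. Of the ligands, Jag1 was higher, with 8.76, 9.28, 9.17 and 9.35 in T1 and 9.97, 9.72, 9.82 and 9.90 in T1_NPC (0.71 ± 0.23, adjusted p = 0.0459). This call was lost whichever array was left out (adjusted p 0.0536 to 0.141). Jag2 was lower, with 8.82 to 9.02 in T1 and 8.31 to 8.47 in T1_NPC (-0.50 ± 0.14, adjusted p = 0.0248), and was not called without T1 replicate 1 or T1_NPC replicate 4 (adjusted p up to 0.0711). Rbpj fell by 0.52 ± 0.13 (adjusted p = 0.0124), with -0.34 and -0.71 from its 2 probes, and kept its call with any array left out. The Notch antagonist Numb rose by 0.43 ± 0.11, a call lost without T1 replicate 3 (0.33, adjusted p = 0.0728). The target genes Hes1 (0.34 ± 0.30), Hes5 (-0.28 ± 0.20), Hey1 (0.35 ± 0.13) and Hey2 (-0.55 ± 0.19) were not called.

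Genes of homeostatic microglia, the resident macrophages of the cord, were lower in 2 of 9 measured (22.2%, beside 6.46% of all features), and none was higher. Sall1, a transcription factor that defines microglia, read 10.80, 10.39, 10.64 and 10.53 in T1 and 10.08, 9.87, 10.27 and 10.08 in T1_NPC, a difference of -0.51 ± 0.10 (adjusted p = 0.00277) that kept its call in every test with an array left out. P2ry12, the purinergic receptor of ramified microglia, read 13.97, 13.69, 14.15 and 14.08 in T1 and 13.41, 11.25, 13.31 and 13.68 in T1_NPC. All transplanted cords were lower, but the difference of -1.06 ± 0.31 became -0.51 without replicate 2 (adjusted p = 0.0234), and it was not called without T1 replicate 1, 3 or 4 (adjusted p up to 0.0705). Replicate 2 was also low for Cx3cr1, the fractalkine receptor, at 8.12 beside 10.87 to 11.22 in the other transplanted cords, and this gene was not called (-0.57 ± 0.40). The summed log2 level of the 9 genes ran from 86.0 to 92.1 in T1 and from 72.0 to 90.2 in T1_NPC, and their median difference of -0.57 was 0.05 without replicate 2.

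Among markers of phagocytes, Cd68 was 16.01 to 16.47 in T1 and 15.88 to 16.49 in T1_NPC (0.01 ± 0.16). Ctsd, a lysosomal protease, was the only one of 16 phagocyte genes called (6.25%, beside 11.9% of all features). It read -0.43 ± 0.09 (adjusted p = 0.00254), though the groups overlapped. Of 10 genes of alternatively activated macrophages, 2 rose (20%, beside 5.45% of all features). The median difference of this list, 0.52, was the highest of the 34 lists, and was 0.32 without replicate 2. For session 2 minus session 1 of the time course, the median of the list was 0.33. Its uncalled members included the scavenger receptor gene Cd163 (1.26 ± 0.67, adjusted p = 0.231), Il4ra (0.77 ± 0.33) and Lyve1 (0.61 ± 0.33). Other uncalled members were below 0, namely Ccl24 (-0.88 ± 0.38), Clec10a (-0.20 ± 0.34) and Retnla (-0.05 ± 0.40). The mannose receptor gene Mrc1 read 10.41, 10.37, 10.61 and 10.62 in T1 and 11.19, 11.98, 11.45 and 10.82 in T1_NPC, against 5.67 in T0 (0.86 ± 0.27, adjusted p = 0.0396, lost without any of 6 of the 8 arrays, up to 0.152). Chi3l3, the other one, was not well above background on any of the 8 arrays. The cytokine and chemokine list had 1 rise and 3 falls of 21 (19% called, beside 11.9% of all features). The anti-inflammatory cytokine gene Il10 was higher at 4.16, 6.76, 4.93 and 4.10, against 4.05, 3.54, 3.69 and 3.60 (1.27 ± 0.37). Its spots were all well above background on none of the T1 arrays and on 1 T1_NPC array, and without replicate 2 the difference was 0.68 (adjusted p = 0.0769). Ccl3, a chemokine for monocytes, was 12.56 to 12.83 in T1 and 12.08 to 12.27 in T1_NPC, against 7.74 in T0 (-0.56 ± 0.16, adjusted p = 0.0228). Il1rn, the interleukin 1 receptor antagonist (-0.61 ± 0.19), and Tgfb1 (-0.55 ± 0.18) were lower too, with overlapping values. Without replicate 2 none of the 4 was called, and each was also lost without 3 or 4 other arrays (adjusted p up to 0.201, for Tgfb1 at -0.30).

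Of the 8 B and plasma cell genes, 2 were called, in opposite directions (25%, beside 11.9% of all features). Igh-6, the immunoglobulin mu heavy chain, read 3.71, 3.17, 4.24 and 3.74 in T1 and 5.79, 5.64, 5.07 and 5.73 in T1_NPC. The groups did not overlap (1.84 ± 0.32, 3.58-fold, adjusted p = 0.000798), but the probe was well above background on only 1 of the 4 T1 arrays, and the difference was 0.44 with normexp. Tnfrsf17, the plasma cell receptor BCMA, went the other way (-1.06 ± 0.28, adjusted p = 0.0162), a call lost without T1 replicate 1 or T1_NPC replicate 2 (-0.76 and adjusted p = 0.0733 for the latter). None of the 18 T and natural killer cell genes was called. The T cell receptor component Cd3e stood at 3.35 to 4.51 in T1 and 3.15 to 5.22 in T1_NPC, well above background on 2 arrays of each group. Tacrolimus blocks calcineurin, which activates NFAT in T cells. Of 13 genes of that pathway, 3 were called (23.1%, beside 11.9% of all features). Rcan1, an NFAT target that restrains calcineurin, was higher (0.32 ± 0.09, adjusted p = 0.0189) and the catalytic subunit Ppp3ca lower (-0.49 ± 0.14, with -0.86 and -0.11 from its 2 probes). Rcan1 was lost without T1 replicate 3 or T1_NPC replicate 2 (adjusted p up to 0.0661), and Ppp3ca without any of 4 arrays (adjusted p up to 0.122). Ifng was also called, at a level not well above background on any of the 8 arrays.

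Endothelial genes, which hold the blood-spinal cord barrier, split with 1 rise and 3 falls of 13 (30.8% called, beside 11.9% of all features). The efflux pump gene Abcb1a fell by 0.66 ± 0.16, from 7.28 to 7.98 in T1 to 6.55 to 7.11 in T1_NPC (adjusted p = 0.00820), and kept its call in every test with an array left out. The tight junction gene Ocln (-0.68 ± 0.18) was lost without T1 replicate 4 (-0.58, adjusted p = 0.0525), and its difference was -0.43 without T1_NPC replicate 2 (adjusted p = 0.0430). Slco1c1, a thyroid hormone transporter of brain vessels, read 12.48, 10.44, 11.85 and 12.82 in T1_NPC beside 12.48 to 13.29 in T1 (-0.91 ± 0.30), and its difference was -0.42 without replicate 2 (adjusted p = 0.157). The other tight junction gene, Cldn5, was higher (0.51 ± 0.16, adjusted p = 0.0405) and read 0.33 without replicate 2 (adjusted p = 0.170), and Slco1c1 and Cldn5 were also lost without 5 and 4 other arrays. Of 10 ependymal and cilia genes, 2 were lower (20%, beside 6.46% of all features). Foxj1, the master regulator of motile cilia, was lower in every transplanted cord, at 12.19, 11.29, 12.16 and 12.39 against 12.73, 12.56, 12.83 and 12.63 (-0.68 ± 0.16, adjusted p = 0.00909), and the difference was -0.44 without replicate 2 (adjusted p = 0.0239). Spag6 was also called lower, but was not well above background on any T1_NPC array and was lost without any of 6 arrays. All 10 of these genes had a difference below 0, between -1.26 and -0.07, with a median of -0.28 (-0.18 without replicate 2).

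The study centred on cAMP, a second messenger made by adenylate cyclases and read by protein kinase A and by the EPAC proteins. Of 34 genes of this pathway, 3 rose and 1 fell (11.8%, beside 11.9% of all features), with a median difference of -0.02. The cyclase Adcy3 was 7.47, 7.71, 7.78 and 7.58 in T1 and 8.01, 8.80, 8.35 and 8.05 in T1_NPC, against 8.45 in T0 (0.67 ± 0.20, adjusted p = 0.0344). Adcy8 went from 10.91, 10.47, 10.90 and 10.17 to 9.77, 9.62, 10.53 and 10.02, against 11.98 in T0 (-0.62 ± 0.18, adjusted p = 0.0278). The kinase Map2k1 had means of 12.71 in T1 and 13.30 in T1_NPC (0.59 ± 0.18), and the phosphatase subunit Ppp1ca rose by 0.28 ± 0.08. Each of these 4 calls was lost without 2 to 5 of the 8 arrays, with adjusted p up to 0.135. Rapgef4, which encodes EPAC2, read 6.15, 5.84, 6.64 and 5.68 in T1 and 5.71, 6.70, 5.36 and 5.88 in T1_NPC, so the groups overlapped (-0.16 ± 0.27, adjusted p = 0.756), and T0 stood at 8.12. The kinase subunit Prkaca (-0.11 ± 0.24), the transcription factor Creb1 (-0.01 ± 0.12) and the kinase Camkk2 (0.24 ± 0.19) were not called either.

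Of 22 neurotrophic factors and receptors, 1 rose and 2 fell, a share of 13.6% near the 11.9% of all features. Cntfr, the receptor of ciliary neurotrophic factor, was 5.82, 5.48, 5.19 and 5.64 in T1 and 4.44, 3.70, 4.55 and 1.39 in T1_NPC, where it was not well above background on any array. The difference was -2.01 ± 0.43 (adjusted p = 0.00383 in limma), and 0.143 was the adjusted p with only the 8 samples in the fit. Against the detection level of those arrays it was 2.17-fold lower, a figure with no test of its own. That figure counts the T1_NPC values at the lowest signal still above background or at their own, whichever was higher. With normexp the difference of Cntfr was only -0.39. Ntf4, a ligand of TrkB, fell by 0.72 ± 0.21, and Ret, the receptor of the GDNF family, rose by 0.72 ± 0.23. Both had overlapping values and were lost without replicate 2 (-0.49 and adjusted p = 0.118 for Ntf4, 0.43 and adjusted p = 0.178 for Ret), and without any of 3 and 5 other arrays. Bdnf was 5.06 to 6.02 in T1 and 5.62 to 6.56 in T1_NPC (0.58 ± 0.32, adjusted p = 0.250).

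Of 15 heat shock genes, 2 rose and 1 fell (20%, beside 11.9% of all features). Of 20 genes of superoxide and peroxide defence, 1 rose and 1 fell, a share of 10% below that of all features. Hspa4, a chaperone of the Hsp110 class, was 13.24, 13.44, 13.24 and 13.48 in T1 and 12.47, 12.11, 12.51 and 11.58 in T1_NPC, a difference of -1.18 ± 0.22 (2.26-fold, adjusted p = 0.00125), with -0.67 and -1.69 from its 2 probes. Gclm, the modifier subunit of the enzyme that starts glutathione synthesis, was 5.49 to 6.01 in T1 and 3.94 to 4.81 in T1_NPC (-1.15 ± 0.21, adjusted p = 0.000923) and was well above background on 3 of the 4 T1_NPC arrays. Both kept their calls with any array left out, but with normexp Gclm differed by only -0.32, against -1.17 for Hspa4. The cochaperone Dnajb1 (0.58 ± 0.17), the small heat shock protein gene Hspb8 (0.69 ± 0.19) and the peroxidase Prdx5 (0.42 ± 0.13) were higher, each lost without 3 to 5 of the 8 arrays (adjusted p up to 0.112). In the cholesterol pathway, only Cyp51, the lanosterol demethylase, was called of 22 genes (4.55%, beside 11.9% of all features). It read 11.39, 11.74, 11.38 and 11.58 in T1 and 12.01, 12.15, 12.08 and 12.27 in T1_NPC (0.61 ± 0.13, adjusted p = 0.00458), with T0 at 13.40, so T1_NPC lay between T1 and T0. Of 19 proliferation genes, 2 were called (10.5%, beside 11.9% of all features). Tyms (-0.61 ± 0.16), which makes thymidylate, and Birc5 (-0.71 ± 0.21), the survivin of dividing cells, were lower, both with overlapping values and both lost without T1_NPC replicate 2 (adjusted p = 0.0701 and 0.107) and without 1 and 4 other arrays. The proliferation antigen Mki67 was not called (-0.15 ± 0.26).

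Further lists had called members in shares of 10% (proteoglycans), 11.1% (Schwann cells) and 7.69% (synaptic receptors and channels), beside 11.9% of all features. Chst11, a sulfotransferase of chondroitin, was the only one of 10 proteoglycan genes (-0.76 ± 0.21, lost without any of 5 arrays, adjusted p up to 0.0657). Drp2 was the only one of 9 Schwann cell genes (0.35 ± 0.09, lost without T1 replicate 4 or T1_NPC replicate 2, up to 0.0660). Of 26 synaptic receptors and channels, the calcium channel subunits Cacnb2 (0.62 ± 0.19, 0.40 and adjusted p = 0.149 without T1_NPC replicate 2, lost without 4 others too) and Cacna1d (-0.50 ± 0.14, -0.37 and adjusted p = 0.0836 without T1 replicate 3) were called in opposite directions.

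Markers of the transplanted cell type did not stand out. Of 16 neural progenitor markers, none was called, and the differences ran from -0.69 to 0.37 with a median of -0.02. The intermediate filament genes Nes and Vim, which progenitors share with reactive astrocytes, read 0.33 ± 0.13 (adjusted p = 0.0962) and 0.37 ± 0.23 (adjusted p = 0.305). Nes was 11.86 to 12.25 in T1 and 12.21 to 12.69 in T1_NPC, against 9.89 in T0. Sox2 read 0.29 ± 0.13 and Dcx -0.31 ± 0.14. None was called of 9 oligodendrocyte precursor, 12 myelin, 12 astrocyte, 20 neuron, 12 neutrophil and monocyte, 9 MHC class II, 23 interferon, 20 scar matrix, 17 metalloproteinase, 21 respiratory chain, 6 red blood cell and 3 Y-linked genes. Mbp (0.55 ± 0.27, adjusted p = 0.195), Gfap (-0.05 ± 0.29, adjusted p = 0.945) and the synaptic gene Snap25 (0.64 ± 0.40, adjusted p = 0.324) stand for myelin, astrocytes and neurons. Snap25 was 12.06 to 13.35 in T1 and 12.78 to 14.36 in T1_NPC, with replicate 2 the highest, and T0 stood at 15.09. Simulated arrays of this design had 200 of 35469 features changed and no slide or session effect. There, 51.0% of changes of 1 log2 unit and 90.0% of changes of 2 were recovered, so smaller changes could be missed. In the data 11.9% of features were called, so those rates may not carry over to this comparison. In all, 14 of the 34 lists had no called member.

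**Figure D4:**
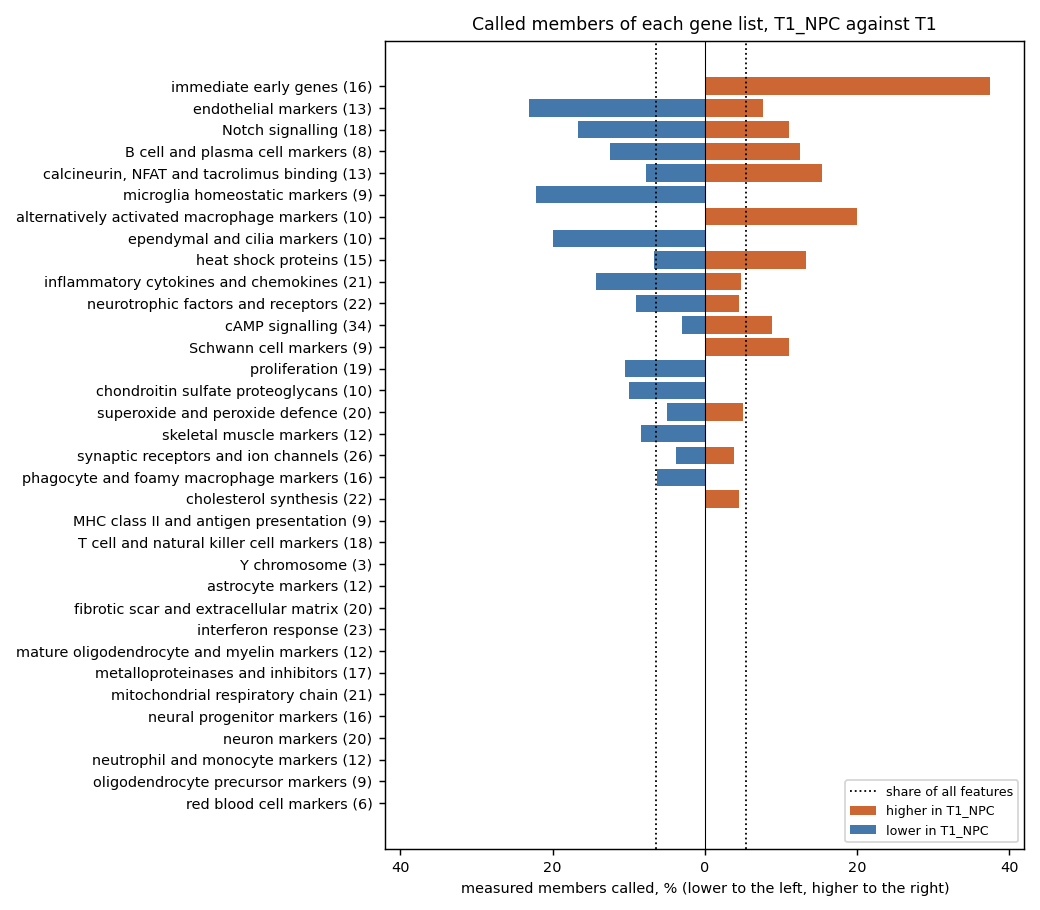
Percentage of measured members of each gene list called higher (orange, to the right) or lower (blue, to the left) in T1_NPC than in T1, with the number measured in brackets and dotted lines at the shares of all features (5.45% higher, 6.46% lower). The immediate early genes reach 37.5% to the right, and 14 lists have no bar.

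Animals transplanted 1 week after injury and taken a week later (T2_NPC) were set against their own injured controls (T2), which share no array with T1 and T1_NPC. Of all features, 3359 (9.47%) were called there, and 106 (0.299%) differed between the acute and the subacute effect. T2_NPC arrays filled another slide of session 3, while the T2 arrays were read in sessions 1 and 2. Transplantation and session cannot be told apart in this comparison either. The part of the session in genes called in both comparisons was not tested. Among the 15 falls, 6 were also called lower in T2_NPC. Notch3 fell by 2.51 (adjusted p = 0.00270), and the others read -1.97 (Fam184b), -1.48 (Slc31a1), -1.38 (Tnnt1), -1.08 (Pi16) and -0.94 (Dhx9). Among the 15 rises, Rtn4rl2 (1.46, adjusted p = 0.000974) and Junb (0.99, adjusted p = 0.0170) were also called, as was Fos (1.07, adjusted p = 0.000869). Of the 16 immediate early genes, 3 were called higher in T2_NPC and none lower, with a list median of -0.05. The list median of the alternatively activated macrophage genes was -0.09 in T2_NPC minus T2. The difference between both effects was -0.31 ± 0.71 for Notch3 and 0.55 ± 0.36 for Junb, neither of them called.

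A difference between the effects was called for 4 of the genes named here. Psx1 and Adam7 had been named for the size of their acute rise, which is part of this difference. That choice favours a larger acute than subacute effect. Psx1 rose by 1.59 in the acute group and read 0.23 in the subacute group, a difference of 1.36 ± 0.19 (adjusted p = 0.000698). Adam7 read 1.56 and -0.32 (difference 1.87 ± 0.30, adjusted p = 0.00358). Igh-6 read 1.84 and -0.38 (2.22 ± 0.46, adjusted p = 0.0328), a value that rests on T1 arrays of which 1 of 4 measured the probe well above background. Sall1 moved in opposite directions, since it fell by 0.51 in the acute group and rose by 0.46 in the subacute group (adjusted p = 0.00716), and the difference of -0.97 ± 0.15 was called (adjusted p = 0.00184). For Grin2d, which fell in the acute group and read 0.42 in the subacute group, the difference was not called (adjusted p = 0.165), nor was it for Btg2 (0.16 in the subacute group, adjusted p = 0.268).

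**Figure D5:**
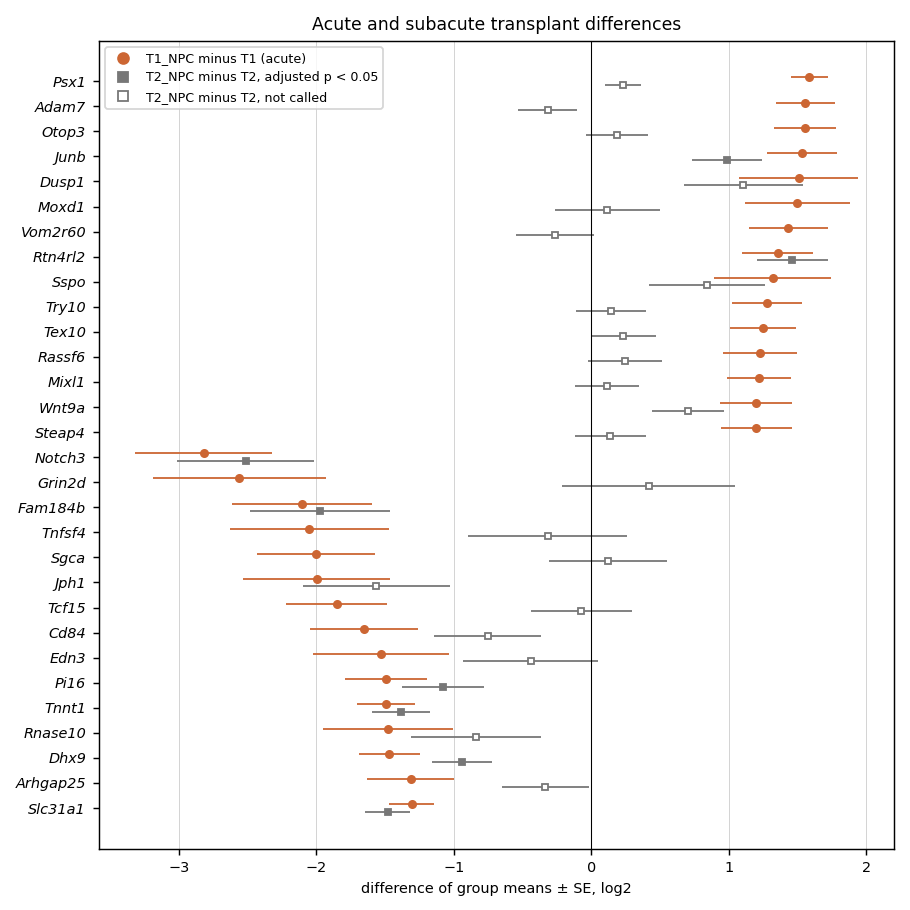
Differences of group means with SE bars (log2, horizontal axis) for the 15 rises and 15 falls of the acute transplant, with T1_NPC minus T1 as circles and T2_NPC minus T2 as squares (filled where adjusted p is under 0.05). Both effects lie close for Notch3, Fam184b, Tnnt1, Slc31a1 and Rtn4rl2, while those for Psx1 and Adam7 are apart.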

How the data were processed

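Gene expression was measured with 1 dye on Agilent rat arrays of the 4 x 44K format. The authors corrected the background with Agilent's software and quantile normalized the arrays. The deposited values are log2 of these, and the deposited scanner files hold intensity per spot, from Agilent Feature Extraction.

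Values were joined to the array's gene names, giving 41012 probes from 43379 spots without controls, and were averaged over probes to 35469 features with no filter on dim probes. A model with a mean for each of the 7 groups was fitted to all 28 arrays in limma 3.58.1 (R 4.3.3, version 1.17.8 of data.table), with calls at an adjusted p (Benjamini-Hochberg) under 0.05. Scanner files were matched to the values by rank order (best Spearman 1, second best at most 0.993). Python 3.11.15, pandas 2.3.3 and matplotlib 3.10.9 made the tables and figures.

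The samples compared and the gene lists were chosen with earlier results of these data known. Named were the 15 largest rises and falls with a reference symbol, a call, no overlap and spots well above background on all 8 arrays, then called list members and 12 uncalled ones. Of 537 list entries, 521 were measured. Alternatives were scanner intensities by rank order or as deposited, 75th percentile scaling, normexp (offset 50), only the 8 samples, dim probes left out, the brightest probe, trend and robust moderation, slide or replicate number as a block, a change of at least 2-fold, and each array left out. Normexp used median spot signals. The fit was tested on simulated data with 200 changed features. P-values measure the spread between these samples, which may in part be technical.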

Additional observations from a re-analysis of the deposited data

Results flagged for a closer look

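Among 180 sets of 4 values (90 genes named, in both groups), 16 held a sample far from the other 3, by the gap to its neighbour as a share of the range. Chance gives about 1 in 20. In 8 of the 16 that sample was T1_NPC replicate 2. It read 9.90 for Notch3 beside 13.48 to 13.89 in the other 3, 4.99 for Tnfsf4 beside 9.19 to 9.67, 7.21 for Arhgap25 beside 8.87 to 9.16, and 11.25 for P2ry12 beside 13.31 to 13.68. It read 8.12 for Cx3cr1 beside 10.87 to 11.22, 15.88 for Cd68 beside 16.43 to 16.49, 15.45 for Ppp1ca beside 15.49 to 15.50, and 9.93 for Mixl1 beside 8.95 to 9.05. All but Mixl1 were low, and 5 of them (Tnfsf4, Arhgap25, P2ry12, Cx3cr1 and Cd68) are genes of microglia or other immune cells.

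In the other T1_NPC samples, replicate 3 read 5.24 for Wnt9a, replicate 4 read 3.804 for Spag6 beside 1.66 to 1.89, and replicate 1 read 16.33 for Vim. In T1, replicate 1 read 10.09 for Slc31a1 and 9.02 for Jag2, replicate 3 read 7.27 for Chst11 and 10.42 for Cx3cr1, and replicate 4 read 14.46 for Gfap beside 13.59 to 13.69.

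The acute and the subacute effect differed by the test of the difference in 4 named genes, by 1.36 for Psx1, 1.87 for Adam7, 2.22 for Igh-6 and -0.97 for Sall1. Of these, Psx1 and Adam7 had been named for the size of their acute rise. For Igh-6, 1 of 4 T1 arrays measured the probe well above background. Sall1 was the only one of them called in both effects, with opposite signs. With scanner intensities by rank order the differences kept their sign.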

How the results depend on the processing

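The count of features called (4225, with 1933 higher and 2292 lower) stayed within 1.5 times with scanner intensities by rank order, normexp, dim probes left out, the brightest probe, trend and robust moderation and the replicate block. It was 0 with scanner files as deposited (0 higher, 0 lower, 871 at an unadjusted p under 0.05). With 75th percentile scaling it was 7299 (5230 higher), with only the 8 samples 1223 (596 higher, 627 lower), with the slide as a random block 2236 (984 higher, 1252 lower, correlation 0.173) and at a change of at least 2-fold 1568 (735 higher, 833 lower). With each array left out, it ranged from 2890 (without T1 replicate 3) to 4713 (without T1_NPC replicate 1), with 1269 to 2109 higher and 1621 to 2604 lower. PC1 held 49.0% of the variance over the 500 most variable features, against 37.1%. The fit with only the undisputed arrays was not run, because 1 T1 array and no T1_NPC array were left. Slide or session as a fixed block could not be fitted.

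Same-numbered replicates did not deviate together (correlations -0.08, -0.13, -0.06 and 0.12, none best with its own number), and the replicate block gave 3834 calls (1760 higher, 2074 lower). Of the 78 called genes named, 36 kept their call with each array left out. The call was lost for 50 with only the 8 samples, 38 with the slide block, 16 with normexp, 7 with the replicate block, 6 with the brightest probe, 4 with 75th percentile scaling, and 1 each with rank-ordered scanner intensities and with trend and robust moderation, and no sign changed there. With dim probes left out, 74 kept their call and the other 4 had no value. With the files as deposited, none was called and 61 had the opposite sign, with log2 differences of Psx1 -0.31, Adam7 -0.55, Otop3 -0.36, Junb -0.14, Dusp1 -0.055, Vom2r60 -0.093, Rtn4rl2 -0.61, Sspo -0.69, Try10 -0.013, Tex10 -0.068, Rassf6 -0.42, Mixl1 -0.47, Wnt9a -0.17, Notch3 0.43, Grin2d 1.22, Fam184b 1.02, Tnfsf4 0.82, Sgca 0.60, Jph1 0.86, Tcf15 0.47, Cd84 0.33, Edn3 0.50, Pi16 0.89, Tnnt1 0.53, Rnase10 0.90, Dhx9 0.044, Arhgap25 0.63, Slc31a1 0.45, Abcb1a 0.29, Adcy3 -0.46, Adcy8 0.085, Cacna1d 0.039, Cacnb2 -0.24, Ccl3 1.49, Chi3l3 -0.19, Cldn5 -0.30, Ctsd 0.47, Cyp51 -0.77, Dnajb1 -0.20, Drp2 -0.0081, Egr3 -0.26, Foxj1 0.86, Gclm 0.32, Hspa4 0.27, Ifng -0.34, Igh-6 -0.12, Il10 -0.62, Jag1 -0.17, Map2k1 -0.12, Numb -0.21, Ocln 0.24, P2ry12 0.32, Ppp1ca -0.20, Ppp3ca 0.13, Prdx5 -0.34, Rbpj 0.081, Sall1 0.031, Slco1c1 0.19, Spag6 0.98, Tgfb1 0.33, Tnfrsf17 0.32. Uncalled genes that changed sign there were Nes -0.017, Gfap 0.54, Snap25 -0.79, Mbp -0.20, Bdnf -0.63, Mki67 0.29. Uncalled genes that changed sign elsewhere were Gfap (0.051 with normexp, 0.0052 with the slide block) and Cd68 (-0.10 with 75th percentile scaling). With arrays left out in turn, differences of uncalled genes crossed 0 for Gfap (-0.21 to 0.15), Cd68 (-0.083 to 0.16), Cx3cr1 (-0.87 to 0.17), Rapgef4 (-0.43 to 0.024), Egr1 (-0.26 to 0.046), Mki67 (-0.38 to 0.053) and Cd3e (-0.14 to 0.55). The causes were not tested. Normexp made 30 of the 78 differences smaller and 1 (Ppp1ca) larger by over 1.5 times, and leaving out T1_NPC replicate 2 made 14 smaller. Not every spot of Il10, Igh-6, Egr3, Cd3e, Chi3l3, Ifng, Spag6, Cntfr, Gclm and Cacnb2 was well above background, which limits their values.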

Other observations

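In all, 10 gene families were counted by name after the values were seen, so the counts are descriptions with no test. Of 18 histone genes named Hist, 7 were lower in T1_NPC (38.9%, beside 6.46% of all features) and none was higher, with called differences from -1.72 to -0.39. They were Hist1h1d, Hist3h2a, Hist1h1a, Hist3h2bb, Hist2h2be, Hist1h4b and Hist1h1b. Without T1_NPC replicate 2, 4 of the 18 were lower. The median of the family was -0.32 in T1_NPC minus T1, -0.30 in T2_NPC minus T2 and -0.25 in session 2 minus session 1 of the time course. Of 76 genes of cytosolic ribosomal proteins, 13 were lower (17.1%) and 1, Rpl3, was higher (1.32%). In T2_NPC minus T2, 15 were lower and 1 higher, and the medians were -0.13, -0.18 and -0.15 in the same order of comparisons.

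Of 68 features of interleukins and their receptors named Il, 10 were higher (14.7%, beside 5.45% of all features) and 1, Il1rn, was lower. The family median was 0.12, and -0.05 in T2_NPC minus T2, and 5 of the 10 were also called between scan sessions. The higher ones were Il18bp, Il10, Il27ra, Il6st, Il1f6, Il17ra, Il1rap, Il22ra1, Il17b and Il1rapl1, by 0.55 to 1.55, and 7 of them were well above background on all 8 arrays. Without T1_NPC replicate 2, 5 were called higher. Of 46 vomeronasal receptor genes named Vom, 9 were higher (19.6%) and 2 lower, with 2 of the 9 well above background on all 8 arrays, and 1 was higher and 1 lower in T2_NPC. These receptors belong to sensory neurons of the nose. Of 1111 olfactory receptor genes named Olr, 7.11% were higher and 3.69% lower. Lower shares than over all features were found in both directions for 309 solute carriers named Slc (3.88% higher, 2.27% lower) and 88 potassium channels named Kcn (2.27% and 4.55%). Of 36 collagens 1 was lower (2.78%) and of 30 chemokines named Ccl and Cxcl 2 were (6.67%), beside 6.46% of all features. Of 34 MHC genes named RT1 none was called in limma.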
